A study of Homo sapiens with 12 samples.

Results

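The 40 genes described here encode nuclear subunits of respiratory chain complexes II, III and IV and of ATP synthase, which is complex V. They were picked by name from 62703 genes in the deposited count table, and they comprise 4 genes of complex II (SDH), 9 of complex III (UQCR and CYC1), 11 of complex IV (COX) and 16 of complex V (ATP5). All 40 had counts in each of the 12 libraries and passed the filter on low counts in every comparison. The cells were iMGLs, which are microglia-like cells made from the established human iPSC line WTC11. CRISPR editing had given isogenic lines of 1 clone each: J, K and L are the 3 WT clones, and the 3 LACTB KO clones are A, B and C. Every clone was taken through 2 differentiations, which the labels give as the batch, so a library is named here by its clone and differentiation (J1 is clone J in differentiation 1). All cultures were grown with IL34, TGFb and MCSF, with CX3CL1 and CD200 added before collection, and none received a further treatment.

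Electrons from succinate enter the respiratory chain at complex II, pass from ubiquinol to cytochrome c through complex III and reach oxygen at complex IV. Complexes III and IV pump protons out of the mitochondrial matrix, and ATP synthase lets them flow back through a rotating ring of c subunits to make ATP. Complexes III, IV and V also hold a few subunits encoded by mitochondrial DNA, whereas all subunits of complex II are nuclear. LACTB is a mitochondrial enzyme, and the comparison asks whether its loss goes with a different level of the transcripts for these complexes.

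Estimated counts summed to between 24153233 and 28406943 per library. Levels are given in CPM, which are counts brought to a common library size, here with sizes scaled by TMM, a method that takes most genes as unchanged between libraries. LACTB, the targeted gene, averaged 79.8 ± 9.66 CPM over the 6 WT libraries and 21.8 ± 20.5 CPM over the 6 LACTB KO libraries (SD, n = 6 each, from 3 clones). Clone means of LACTB were 75.1, 88.7 and 75.5 CPM in J, K and L, against 9.7, 48.1 and 7.73 CPM in A, B and C. The genotypes therefore did not overlap, but clone B kept 60.3% of the WT mean, whereas A and C kept 12.2% and 9.68%. These are transcript levels and give no measure of LACTB protein. The paper reports that both alleles of all clones were sequenced to check for indels that give frameshifts or early stop codons. Its wording does not separate WT from LACTB KO clones, and such indels define the LACTB KO clones. The exact two-sided permutation test over clones gave p = 0.1, the smallest p that 3 clones against 3 can give, and edgeR gave a log2 fold change of -1.87 (adjusted p = 0.735).

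All 16 microglial markers had counts in these libraries, and their sum lay between 8040 and 10200 CPM in the WT libraries and between 8010 and 8820 CPM in the others. All 16 fibroblast and mesenchymal markers also had counts, with sums from 27.1 to 9870 CPM (WT) and from 24.5 to 1100 CPM (LACTB KO). Libraries J1 (9870 CPM) and K2 (5080 CPM), both WT, stood above the others, of which B2 was the next at 1100 CPM. Among erythroid and megakaryocyte markers, PF4 and PPBP were at 0 in all libraries, and the sums did not exceed 16.1 CPM. Summed pluripotency markers did not exceed 21.0 CPM. In a bulk sample, fewer cells of a type and less RNA per cell cannot be told apart.

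The ring of ATP synthase is the clearest case of several genes for a single protein among these members, and its coding sequences are shown because in the mature stretch the gene copies differ only by silent bases. ATP5MC1, ATP5MC2 and ATP5MC3 each encode subunit c behind a different leader peptide, which is removed in the mitochondrion. In the canonical GENCODE version 44 transcripts on GRCh38, the final 75 codons before the stop gave the same 75 residues in all 3 genes, behind 61, 66 and 67 leader residues. The stretches lie in coding exons on chromosome 17 from 48895222 to 48895766 (plus strand, ATP5MC1), on chromosome 12 from 53665317 to 53669260 (minus strand, ATP5MC2) and on chromosome 2 from 175178291 to 175179169 (minus strand, ATP5MC3), each split over 2 exons. Capitals mark the 52 of 225 positions that the 3 genes do not all share, and 47 of those are the third base of a codon. They are written 5′ to 3′ on the coding strand.
ATP5MC1: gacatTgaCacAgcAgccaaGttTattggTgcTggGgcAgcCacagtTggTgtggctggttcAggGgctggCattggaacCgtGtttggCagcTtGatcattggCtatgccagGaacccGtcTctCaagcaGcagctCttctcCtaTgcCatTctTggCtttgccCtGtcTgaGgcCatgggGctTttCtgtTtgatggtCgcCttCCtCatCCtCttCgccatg
ATP5MC2: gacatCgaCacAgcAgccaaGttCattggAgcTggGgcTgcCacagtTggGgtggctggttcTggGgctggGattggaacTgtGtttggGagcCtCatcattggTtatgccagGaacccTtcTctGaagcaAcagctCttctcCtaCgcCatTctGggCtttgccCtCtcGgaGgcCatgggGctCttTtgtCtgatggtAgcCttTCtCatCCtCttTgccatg
ATP5MC3: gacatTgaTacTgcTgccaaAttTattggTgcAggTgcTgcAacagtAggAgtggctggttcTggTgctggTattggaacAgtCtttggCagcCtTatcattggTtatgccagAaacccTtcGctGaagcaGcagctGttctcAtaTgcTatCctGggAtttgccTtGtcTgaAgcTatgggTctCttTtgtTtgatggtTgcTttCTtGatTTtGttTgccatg
ATP5MC1 and ATP5MC2 differed at 25 bases, and each of them differed from ATP5MC3 at 42.

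Levels between genes were compared per length, in TPM, which is the share of a library's transcripts once counts are divided by the summed length of each gene's exons. Complex V summed to 3100 ± 235 TPM and complex IV to 2550 ± 249 TPM (SD, n = 12 libraries). Complex III reached 1390 ± 113 TPM and complex II 514 ± 36.2 TPM. Per gene, the mean was 231 TPM in complex IV, 194 TPM in complex V, 154 TPM in complex III and 129 TPM in complex II. These levels rest on the length assumed, because exons of minor transcripts lengthen some genes: with the canonical transcript alone the sums were 4280, 3470, 1490 and 604 TPM in the same order of complexes, and the order did not move.

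ATP5F1B, the catalytic beta subunit of ATP synthase, had the highest level of the 40 at 1270 ± 92.7 TPM, followed by COX8A at 763 ± 84.1 TPM and COX6A1 at 413 ± 44.1 TPM (SD, n = 12). COX8A and COX6A1 are small accessory subunits of complex IV. At the other end stood UQCRB, a small subunit of complex III, at 41.5 ± 2.76 TPM, COX7A2L, which takes part in joining complexes III and IV into supercomplexes, at 47.7 ± 4.46 TPM, and ATP5MC1 at 49.9 ± 7.03 TPM. The spreads of these last 3 genes overlapped. With the canonical length only UQCRB (36.2 TPM) stayed among the lowest 3, with COX7B (40.7 TPM) and UQCRQ (42.3 TPM). ATP5MC1 then stood at 118 ± 16.5 TPM (position 30). The low place of UQCRB rests on its length, which was the longest of the 40 on both scales (12600 and 8459 bases). Without length it averaged 131 CPM in WT, against 41.0 CPM for COX7B and 28.2 CPM for UQCRQ. In complex II the membrane anchor SDHC (219 ± 14.1 TPM) stood above the other anchor SDHD (147 ± 12.8 TPM), the iron-sulfur subunit SDHB (90.3 ± 9.68 TPM) and the flavoprotein SDHA (58.2 ± 4.45 TPM), although with the canonical length SDHC and SDHD overlapped (187 ± 10.7 and 179 ± 13.9 TPM). Among complex III genes CYC1, which carries the c1 heme, and UQCRH, the hinge protein, were close at 264 ± 27.7 and 259 ± 22.9 TPM, whereas the canonical length set UQCRH at 379 ± 28.9 TPM and CYC1 at 255 ± 25.6 TPM, below UQCRC1 (263 ± 23.0 TPM). With the canonical length ATP5F1B (948 TPM) remained the highest gene, but COX4I1, the largest nuclear subunit of complex IV, moved from position 14 to position 2 (720 TPM).

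The share of each ring gene was taken within each library, so it does not depend on scaling between libraries. ATP5MC1 made up 16.7% ± 0.62 of the ring transcripts in WT and 16.9% ± 1.14 in LACTB KO (SD, n = 6 libraries). ATP5MC2 made up 36.1% ± 1.93 and 35.5% ± 3.1, and ATP5MC3 47.2% ± 1.57 and 47.6% ± 2.41. Between genotypes the clone means differed by 0.221, -0.603 and 0.382 percentage points, with an exact two-sided permutation p of 0.8 for each. Which gene supplied most ring transcripts depended on the length used: with canonical transcripts ATP5MC2 gave 61.7% ± 1.93 in WT, against 19.6% ± 1.07 for ATP5MC3 and 18.7% ± 0.991 for ATP5MC1.

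Some subunits of complex IV have tissue isoforms, and these libraries held the general isoforms almost alone. COX7A1, COX7B2 and COX8C, which are isoforms of COX7A2, COX7B and COX8A, had 0 counts in all 12 libraries. COX6A2, the heart and muscle isoform of COX6A1, had 1 count in all libraries together, COX6B2 had 10 and COX4I2, the isoform of COX4I1 known from lung, had 11. NDUFA4, now counted among complex IV subunits, averaged 98.5 ± 17.6 CPM, while NDUFA4L2 averaged 0.656 ± 0.153 CPM (SD, n = 12).

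Reads of some members can be shared with other genes, since the kit does not mark strand and the counting tool is not given in the sources used here. SDHA pseudogenes held counts equal to 29.3% of those of SDHA, and UQCRFS1 pseudogenes 4.64% of those of UQCRFS1, the Rieske iron-sulfur subunit, so both levels are uncertain. ATP5ME shared 61.3% of its exon bases with MYL5 and ATP5PF 34.4% with GABPA, each on the opposite strand. ATP5PD overlapped KCTD2 (10.5%), ATP5PB overlapped WDR77 (2.87%) and ATP5F1E overlapped TUBB1 (23.2%), also on the opposite strand. Counts of GABPA equalled 143% of those of ATP5PF, KCTD2 63.8% of ATP5PD, MYL5 47.2% of ATP5ME and WDR77 46.9% of ATP5PB, but TUBB1 0.644% of ATP5F1E. The levels of ATP5PF, ATP5PD, ATP5ME and ATP5PB, and their patterns over libraries, are therefore uncertain too. How many reads were shared was not tested. ATP5MF overlapped PTCD1 and the read-through gene ATP5MF-PTCD1 on its own strand.

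**Figure D1:**
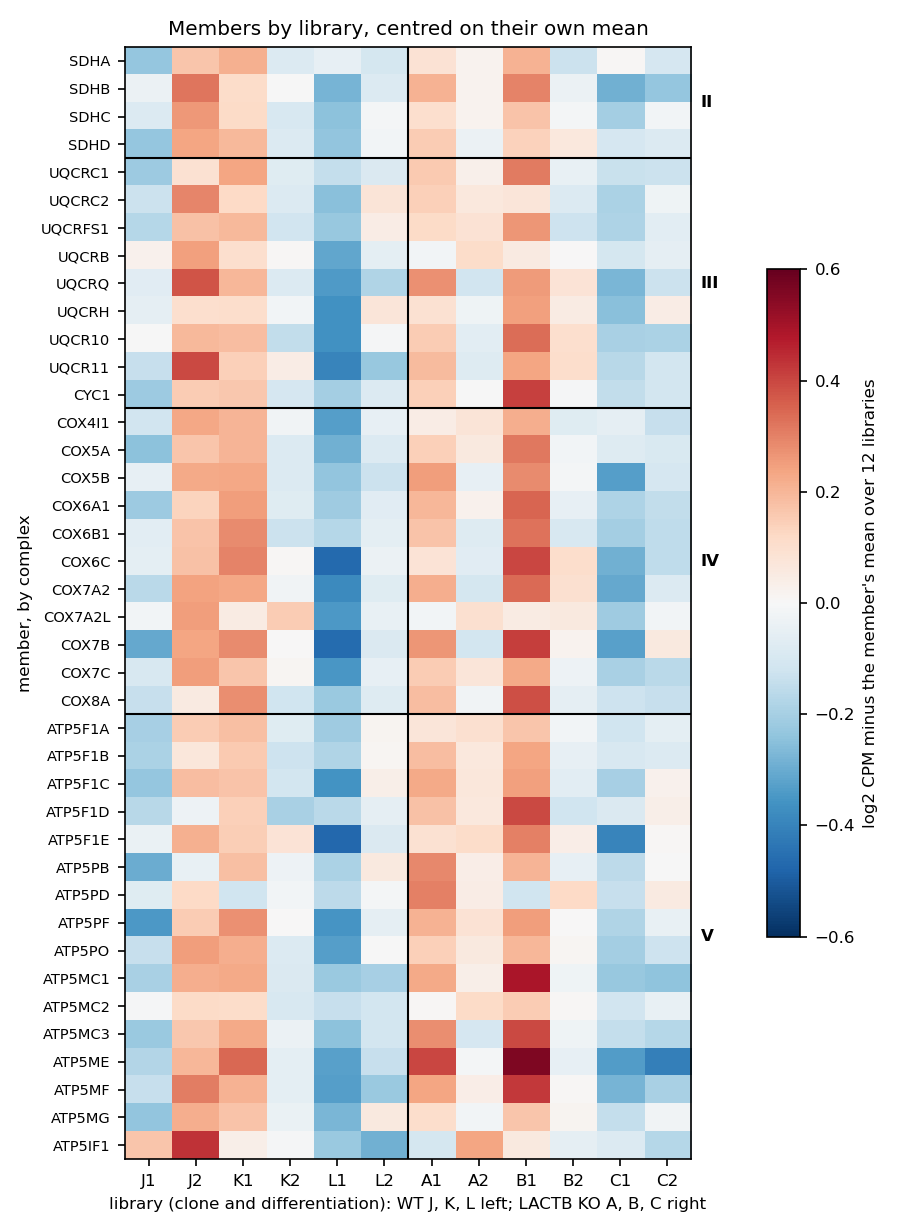
Each row is a member and each column a library, with WT clones to the left and LACTB KO clones to the right; colour gives the log2 CPM minus the mean of that member over 12 libraries. Whole columns share a colour: J2, K1, A1 and B1 are red for most members, and L1 is blue, being the lowest library for 27 of 40 members.

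The members differed between libraries as a block. Averaged over all 40, the level in log2 CPM (prior count 2) was 6.34 and 6.67 in J1 and J2, 6.65 and 6.42 in K1 and K2, and 6.20 and 6.41 in L1 and L2. In LACTB KO it was 6.63 and 6.50 in A1 and A2, 6.73 and 6.47 in B1 and B2, and 6.29 and 6.38 in C1 and C2. Both the lowest library (L1, WT) and the highest (B1, LACTB KO) belonged to differentiation 1, and the genotypes overlapped. B1 was the highest library for 22 members and J2 for 13.

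The spread of a member over the 12 libraries had a median SD of 0.185 on the log2 CPM scale (range 0.104 to 0.312). It was 0.271 for all 17577 genes tested, which were not matched to the members for level, and 0.177 for 37 nuclear subunits of complex I. After the mean of the 40 was subtracted from each library, the median SD was 0.08. As a description, members were correlated with the mean of the other 39 over these 12 libraries, which share clones and a common scaling. ATP5MF (0.97), ATP5PO (0.97) and COX7C (0.97) had the closest pattern; they are a membrane subunit of ATP synthase, the stalk protein OSCP and a small subunit of complex IV. Lowest were ATP5PD (0.35), another stalk subunit, ATP5IF1 (0.46), the inhibitor that stops ATP synthase from running backwards, and COX7A2L (0.69).

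ATP5IF1 read 50.6 and 60.9 CPM in J1 and J2, 46.2 and 45.0 CPM in K1 and K2, and 38.6 and 37.0 CPM in L1 and L2. In LACTB KO it read 41.9 and 53.3 CPM in A1 and A2, 47.0 and 43.4 CPM in B1 and B2, and 42.6 and 40.1 CPM in C1 and C2. The inhibitor was therefore highest in J2, as many subunits were, but in clones L, A and C its 2 libraries differed in the opposite direction to the average of the 40.

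ATP5ME, a small membrane subunit, had the widest range, from 12.2 CPM in C2 to 24.0 CPM in B1, a ratio of 1.96. ATP5MC2 had the narrowest, from 93.3 CPM in L1 to 114 CPM in B1, a ratio of 1.22. Within a clone its share of ring transcripts was higher in the differentiation where the 40 genes stood lower in 5 of 6 clones, for example 39.2% in J1 and 34.8% in J2, and 31.6% in B1 and 36.3% in B2. Clone C was the exception (36.6% and 38.2%). The share of ATP5MC3 went with the 40 genes in 5 of 6 clones, and since shares add up to a whole these directions are not independent.

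**Figure D2:**
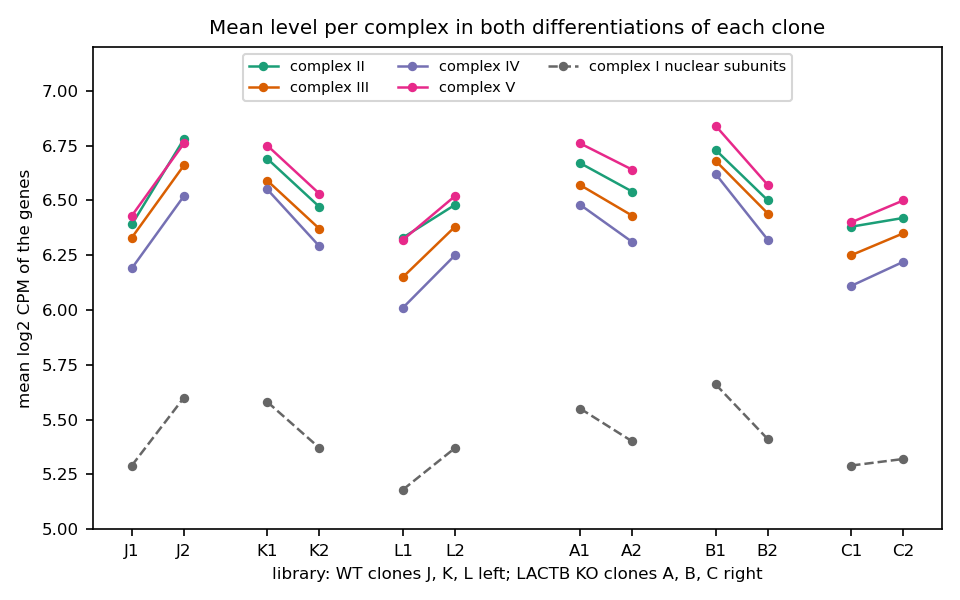
Mean log2 CPM of the genes of each complex (vertical axis) in both differentiations of each clone (horizontal axis), with a line joining the libraries of a clone. The lines of complexes II to V and of the complex I subunits slope the same way in each clone: up in J, L and C and down in K, A and B.

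Between the differentiations of a clone, members moved together, but not in the same direction in every clone. In clone J, 40 of 40 members were higher in differentiation 2 (median log2 difference 0.35), where 53.1% of all genes tested were higher. In clone L 38 of 40 were higher (median 0.21, all genes 54.3%), and in clone C 32 of 40 (median 0.07, all genes 53.1%). In clone K 38 of 40 were lower in differentiation 2 (median -0.27), where 52.2% of all genes were lower. In clone B 38 of 40 were lower (median -0.27, all genes 51.6%) and in clone A 33 of 40 (median -0.14, all genes 48.4%). Each of these is a pair of libraries without a replicate, and members are not replicates of a clone.

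Means of complexes II, III, IV and V each had the direction of the 40 genes in 6 of 6 clones. Each complex is part of the 40, so its mean is not independent of theirs. Among genes that are no members, 37 nuclear subunits of complex I and 41 assembly factors of complexes II to V were averaged. Both means, and the level of CYCS (cytochrome c), also had that direction in 6 of 6. The means of the 6 mitochondrially encoded subunits of complexes III to V had it in 3 of 6. Those of 13 other nuclear subunits and tissue isoforms also had it in 3 of 6, but only 5 of the 13 passed the filter on low counts between genotypes, so genes near 0 weigh in that mean. For 12 transcriptional regulators of respiratory genes it was 5 of 6. Fibroblast and mesenchymal markers had the opposite direction in 5 of 6 clones, A being the exception, and the 6 neural markers, whose summed level did not exceed 28.4 CPM, in 6 of 6. Markers of dividing cells had the same direction as the 40 genes in 5 of 6 clones, A again being the exception. Microglial markers had it in the 3 WT clones and the opposite direction in the 3 LACTB KO clones, pluripotency markers had it in 3 of 6 clones, and erythroid and megakaryocyte markers in 2 of 6. The part of these cells in the level of the subunits was not tested.

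**Figure D3:**
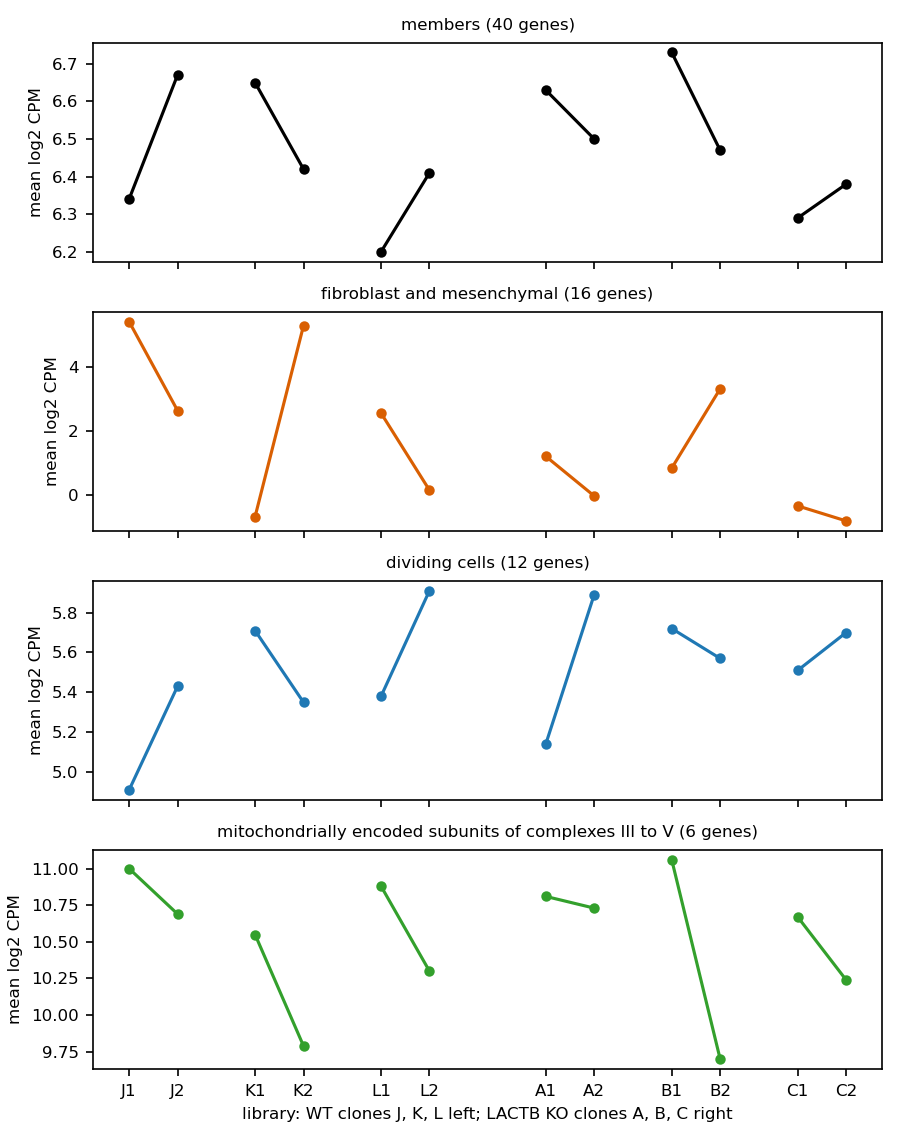
Mean log2 CPM (vertical axes, each on its own scale that does not start at 0) of the 40 members, of fibroblast and mesenchymal markers, of markers of dividing cells and of mitochondrially encoded subunits in the 12 libraries (horizontal axis), with lines joining the libraries of a clone. J1 and K2 have the highest fibroblast levels (5.43 and 5.30), and in those clones the other differentiation has the higher level of the 40 members.

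Across all clones, differentiation 2 was compared with differentiation 1 with the clone as a fixed effect in edgeR. Of 40 members, 18 had a log2 fold change above 0 and the median was -0.006, against 49.2% and -0.003 for the 15530 genes tested. No member reached an adjusted p under 0.05, nor did any gene (0%), although 9.96% of genes had an unadjusted p under 0.05. DESeq2 called 299 genes in this comparison, none of them a member. The median depended on the clones: it was -0.066 without J and -0.052 without L (WT), 0.041 without K (WT), 0.035 without A and 0.048 without B (LACTB KO), and -0.028 without C (LACTB KO). COX7A2L was the 1 member with an unadjusted edgeR p under 0.05, at a log2 fold change of 0.15 (SE 0.052, adjusted p = 0.388).

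COX7A2L was 65.7 and 79.1 CPM in J1 and J2, 68.7 and 73.9 CPM in K1 and K2, and 52.2 and 64.3 CPM in L1 and L2. In A it was 65.6 and 70.9 CPM, in B 68.6 and 69.1 CPM, and in C 57.4 and 65.6 CPM. It was thus higher in differentiation 2 in all 6 clones, although the levels of the differentiations overlapped between clones. COX8A had the next smallest p in complex IV, with a log2 fold change of -0.13 (SE 0.09, adjusted p = 0.688). In complex V these were ATP5ME (-0.17, SE 0.136, adjusted p = 0.745) and ATP5PD (0.09, SE 0.074, adjusted p = 0.747). UQCRB (0.07, SE 0.056, adjusted p = 0.735) and UQCRC1, a core subunit of complex III (-0.08, SE 0.084, adjusted p = 0.817), led complex III, and SDHA (-0.09, SE 0.088, adjusted p = 0.807) and SDHC (0.04, SE 0.08, adjusted p = 0.936) complex II. None of the 8 passed the test. Without clone B, ATP5ME stood at -0.083, COX8A at -0.076, UQCRC1 at -0.030, SDHA at -0.044, SDHC at 0.078 and ATP5PD at 0.057; without clone J, ATP5ME stood at -0.269, UQCRC1 at -0.152 and SDHA at -0.179.

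Subunits encoded by mitochondrial DNA gave other values than the nuclear ones. All 6 (MT-CYB, MT-CO1, MT-CO2, MT-CO3, MT-ATP6 and MT-ATP8) had a log2 fold change below 0 and an unadjusted p under 0.05. Their median was -0.56 (smallest adjusted p = 0.239). Of 15530 genes tested, 604 were lower at that unadjusted p. Whether the 6 vary independently of each other was not tested. Their mean was lowest in B2 (9.70 log2 CPM) and K2 (9.79). It was lower in differentiation 2 in every clone, but unevenly. It went from 11.06 to 9.70 in B and from 10.55 to 9.79 in K, but from 10.81 to 10.73 in A. The decreases in J, L and C lay between those of K and A. The difference between the mitochondrially encoded and the nuclear subunits was not tested.

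The genotypes were compared on counts summed over the differentiations of each clone, 3 WT against 3 LACTB KO clones. With edgeR, 34 of 40 members had a log2 fold change above 0, with a median of 0.039, whereas the 17577 genes tested had 51.7% above 0 and a median of 0.007. No member passed the test, none had an unadjusted p under 0.05 (6.36% of all genes did), and the smallest adjusted p among them was 0.821. No gene was called (0%). DESeq2 called 171 genes, again no member. For no member did the 3 LACTB KO clones lie above or below all 3 WT clones, whereas 4.53% of all genes lay above and 6.2% below.

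Complex V had 15 of 16 members above 0 (median 0.073), complex III 7 of 9 (0.036), complex IV 9 of 11 (0.018) and complex II 3 of 4 (0.014). Every member's 95% interval included 0, and together the intervals ran from -0.40 (ATP5IF1) to 0.52 (ATP5ME), which is 0.758 to 1.44 times the WT level. The intervals reached a median of 0.24 to either side. These data do not show that the genotypes are alike for any member.

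**Figure D4:**
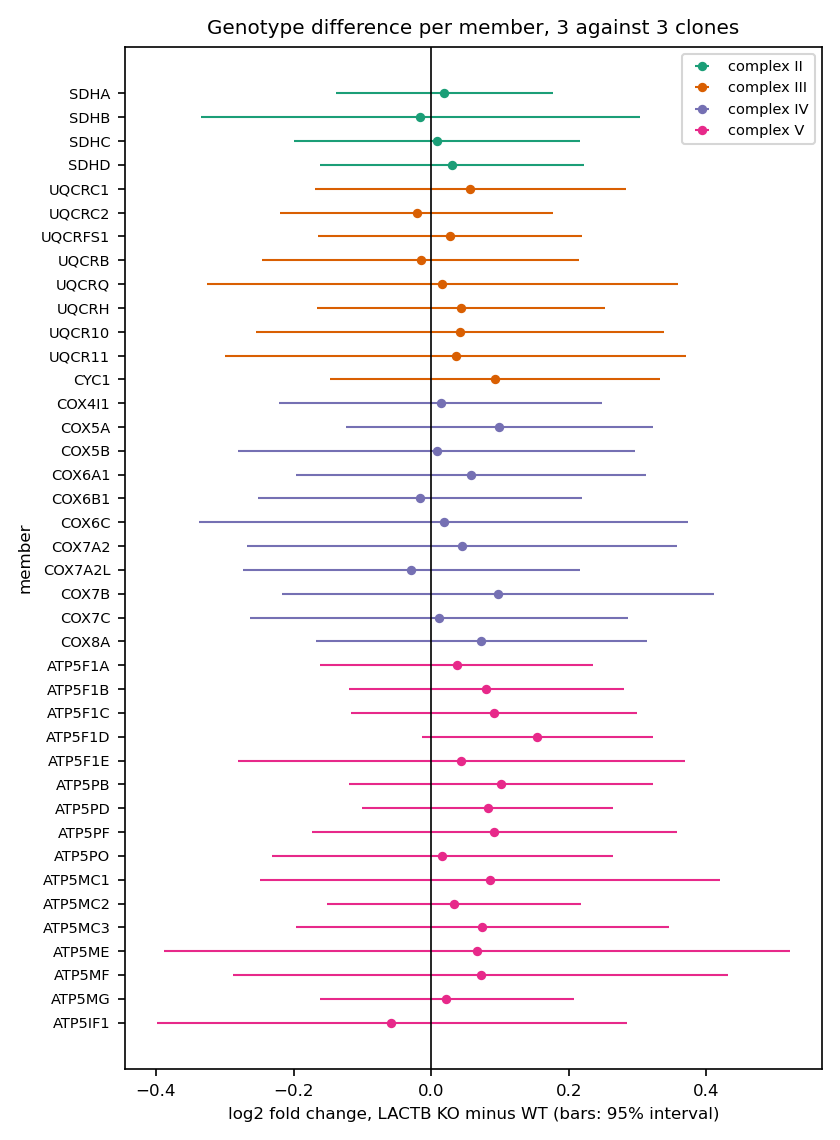
Log2 fold change of LACTB KO against WT (horizontal axis) for each of the 40 members (vertical axis), coloured by complex, with 95% intervals from the edgeR fit on 3 against 3 clone sums. All 40 intervals include 0, and 34 of the points lie to the right of it.

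ATP5F1D, the delta subunit in the central stalk of ATP synthase, had the smallest p. It ran from 40.1 to 50.8 CPM in WT (median 42.6) and from 42.4 to 60.6 CPM in LACTB KO (median 47.6), where library B1 held the highest value. The groups overlapped, and the log2 fold change was 0.15 (SE 0.071, adjusted p = 0.821). ATP5PB, the b subunit of the outer stalk, ran from 166 to 231 CPM in WT (median 199) and from 183 to 249 CPM in LACTB KO (median 207), with a log2 fold change of 0.10 (SE 0.093, adjusted p = 0.879). Its lowest library was J1 and its highest A1. Leaving out a clone moved ATP5PB between 0.045 (without J) and 0.173 (without C).

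In complex IV the matrix subunit COX5A ran from 73.2 to 103 CPM in WT (median 84.5) and from 83.8 to 111 CPM in LACTB KO (median 90.8), with a log2 fold change of 0.10 (SE 0.094, adjusted p = 0.879). COX7B, a small membrane subunit, ran from 30.4 to 51.0 CPM in WT (median 40.7) and from 33.4 to 55.8 CPM in LACTB KO (median 43.1). Its log2 fold change was 0.10 (SE 0.132, adjusted p = 0.908). Both genes had their lowest library in L1 and their highest in B1. COX5A moved to 0.034 without L, to 0.050 without B and to 0.175 without C, and COX7B to 0.012 without B.

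CYC1 ran from 111 to 144 CPM in WT (median 121) and from 116 to 171 CPM in LACTB KO (median 128), and its log2 fold change was 0.09 (SE 0.101, adjusted p = 0.892). UQCRC1 ran from 153 to 209 CPM (median 168) and from 162 to 221 CPM (median 177), with a log2 fold change of 0.06 (SE 0.095, adjusted p = 0.918). In complex II, SDHD ran from 86.4 to 120 CPM (median 98.5) and from 95.2 to 113 CPM (median 103), and its log2 fold change was 0.03 (SE 0.081, adjusted p = 0.947). SDHA ran from 107 to 146 CPM (median 120) and from 115 to 145 CPM (median 127), with 0.02 (SE 0.066, adjusted p = 0.96). Genotypes overlapped for all of them. Without clone B, CYC1 stood at 0.010 and UQCRC1 at 0.004, and without clone C at 0.186 and 0.143. In complex II, SDHD stood without clone B at -0.008 and SDHA at 0.007.

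The ring genes had log2 fold changes of 0.09 (ATP5MC1, SE 0.141, adjusted p = 0.918), 0.03 (ATP5MC2, SE 0.078, adjusted p = 0.941) and 0.07 (ATP5MC3, SE 0.114, adjusted p = 0.914). Without clone B they stood at -0.018, 0.005 and -0.002. Of the other subunits of the catalytic head and central stalk, ATP5F1A (alpha) had 0.04, ATP5F1B 0.08, ATP5F1C (gamma) 0.09 and ATP5F1E (epsilon) 0.04. In the outer stalk ATP5PD had 0.08, ATP5PF 0.09 and ATP5PO 0.02, and among the small membrane subunits ATP5ME had 0.07, ATP5MF 0.07 and ATP5MG 0.02. The inhibitor ATP5IF1 was the 1 member of complex V below 0, at -0.06.

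The other members of complex III were UQCRC2, the second core subunit (-0.02), UQCRFS1 (0.03), UQCRB (-0.01), UQCRQ (0.02), UQCRH (0.04), UQCR10 (0.04) and UQCR11 (0.04). In complex IV, COX4I1 had a log2 fold change of 0.01, COX5B 0.01, COX6A1 0.06, COX6B1 -0.02, COX6C 0.02, COX7A2 0.04, COX7A2L -0.03, COX7C 0.01 and COX8A 0.07. SDHB and SDHC of complex II stood at -0.02 and 0.01.

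How many members lay above 0 depended on single clones and libraries. Without WT clone L 13 of 40 were above 0 (median -0.023), and without LACTB KO clone B 14 of 40 (median -0.017). Without WT clone J (median 0.067) or without LACTB KO clone C (median 0.130) all 40 were, without WT clone K 38 (median 0.074) and without LACTB KO clone A 27 (median 0.023). Without the WT libraries J1 and K2, which held the most fibroblast transcripts, 4 of 40 were above 0 (median -0.054). With all 12 libraries, the fibroblast and mesenchymal markers were lower in LACTB KO for 14 of 14 genes tested, 11 of them with an unadjusted p under 0.05. At that p, 977 of 17577 genes were lower. Markers of dividing cells were higher for 11 of 12, none with an unadjusted p under 0.05, also with all 12 libraries. Neural markers were lower for 4 of 4 genes tested (2 at that p) and microglial markers for 8 of 16 (2 at that p). Erythroid and megakaryocyte markers were lower for 2 of 3 (1 at that p), and the 1 pluripotency marker tested was lower at that p. The part of these cells in the count of members above 0 was not tested. The omission of J1 and K2 cannot decide it, since both were also the library of their clone with the lower level of the 40 members. That level was 6.34 against 6.67 log2 CPM in clone J and 6.42 against 6.65 log2 CPM in clone K.

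Each differentiation was then taken alone, which gives 3 libraries per genotype. In differentiation 1, 39 of 40 members had a log2 fold change above 0 and the median was 0.136, against 49.9% and -0.001 for 15708 genes. In differentiation 2, 37 of 40 were below 0 and the median was -0.077, against 49.6% and 0.002 for 15692 genes. No member had an unadjusted p under 0.05 in either, where 3.21% and 3.36% of all genes did, and none had an adjusted p under 0.05 (0% of genes in both). DESeq2 called 3 genes in each, none of them a member. In differentiation 1 the median was 0.054 without WT clone L and 0.060 without LACTB KO clone B, and 0.279 without WT clone K (5 members at an unadjusted p under 0.05) and 0.268 without LACTB KO clone C (2 members). The share of all genes at that p in these fits is not given here, and members are not separate results. In differentiation 2 the median turned to 0.024, with 27 of 40 above 0, without WT clone J. It was -0.126 without WT clone L and -0.044 without LACTB KO clone C. Fibroblast and mesenchymal markers were lower in LACTB KO for 12 of 12 genes tested in differentiation 1 (median -3.92, 9 with an unadjusted p under 0.05) and for 13 of 13 in differentiation 2 (median -2.13, 1 with an unadjusted p under 0.05). Lower at that p were 454 of 15708 genes in differentiation 1 and 372 of 15692 in differentiation 2. Without WT library J1, the median of the members in differentiation 1 was 0.109, and without WT library K2 it was -0.109 in differentiation 2.

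ATP5MC3 was 116, 158 and 114 CPM in J1, K1 and L1 and 165, 178 and 123 CPM in A1, B1 and C1. In differentiation 2 it was 151, 132 and 125 CPM in J2, K2 and L2 and 126, 133 and 120 CPM in A2, B2 and C2. The genotypes overlapped in both, with log2 fold changes of 0.24 and -0.12. SDHB stood at 0.14 and -0.18 and COX7B at 0.26 and -0.08. ATP5F1D (0.21 and 0.07), ATP5PD (0.13 and 0.03) and ATP5MC2 (0.01 and 0.04) were the members above 0 in both, and ATP5IF1 (-0.06 and -0.08) the 1 below 0 in both.

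**Figure D5:**
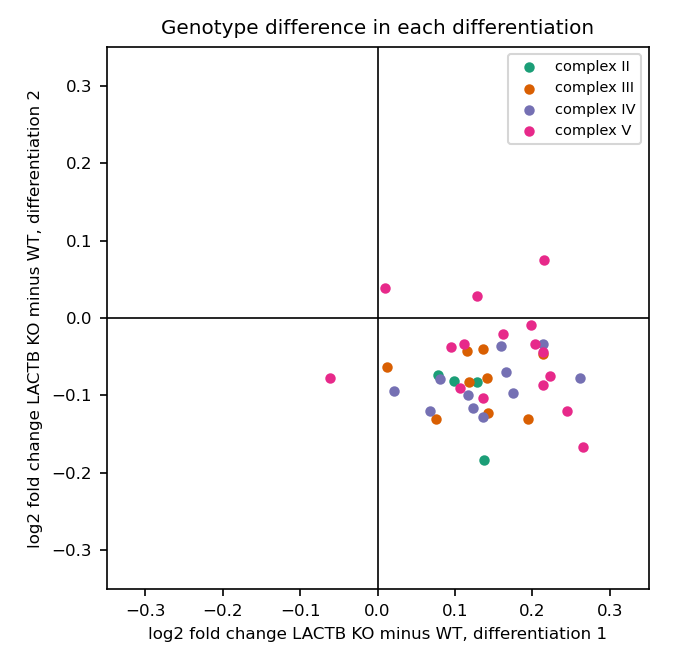
Log2 fold change of LACTB KO against WT in differentiation 1 (horizontal axis) and in differentiation 2 (vertical axis) for each member, coloured by complex. Of 40 points, 39 lie to the right of the vertical 0 line and 37 below the horizontal 0 line.

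The difference itself was tested as the interaction of genotype and differentiation, with clone as a fixed effect. Of 40 members, 39 had a log2 value below 0 and the median was -0.215, against 50.6% and -0.003 for 16681 genes. No member or gene was called (0%), no member had an unadjusted p under 0.05 (0.917% of genes did), and the smallest unadjusted p was that of ATP5MC3 at 0.0921 (-0.36, SE 0.186, adjusted p = 1). The intervals of all 40 included 0, and together they ran from -1.01 to 0.39. Without WT clone K the median was -0.412, with 18 members at an unadjusted p under 0.05 and a smallest adjusted p of 0.642. The share of all genes at that p in the fit without clone K is not given here. Members moved together, so the 18 are not separate results. The median was -0.099 without WT clone J, -0.142 without WT clone L and -0.150 without LACTB KO clone B. For no member was a difference between the differentiations shown.

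Other genes of the pathway were compared between genotypes over clones in the same fit. Of 41 assembly factors, 29 were above 0 (median 0.031) and none had an unadjusted p under 0.05; TTC19, a complex III factor, had the smallest p (0.20, SE 0.0931, adjusted p = 0.819), followed by COX20, which helps build COX2 (0.16, SE 0.103, adjusted p = 0.878). Of 37 nuclear subunits of complex I, 28 were above 0 (median 0.028), with NDUFB2 (0.16) and NDUFA12 (0.15) first by p, both at an adjusted p of 0.878. Of the 6 mitochondrially encoded subunits, 2 were above 0 (median -0.04), namely MT-ATP8 (0.20, adjusted p = 0.885) and MT-ATP6 (0.13), and MT-CYB stood at -0.16 (adjusted p = 0.903). CYCS had a log2 fold change of 0.11 (SE 0.119, adjusted p = 0.895).

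Of 12 transcriptional regulators of respiratory genes, 9 were above 0 (median 0.09). POLRMT, the RNA polymerase of mitochondria, averaged 49.9 ± 4.18 CPM over WT and 57.6 ± 4.9 CPM over LACTB KO libraries (SD, n = 6) and had an unadjusted p of 0.0239 (log2 fold change 0.20, SE 0.0685, adjusted p = 0.726). TFB2M, which helps POLRMT start transcription, averaged 18.0 ± 2.17 and 21.3 ± 3.88 CPM (0.23, SE 0.113, adjusted p = 0.852). Of 13 other nuclear subunits and isoforms, 5 passed the filter on low counts and 1 was above 0, with NDUFA4L2 at -0.20 and ATP5MK at 0.06.

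Promoters of the members were searched for motifs of factors known to act on respiratory genes. RefSeq promoters on GRCh38.p14, from 250 bases before to 50 after a start site, were available for 32 of 40 members, with 38 entries. The core of the NRF1 motif, GCGCATGCG, was found on either strand in 6 of 38 (15.8%), against 1.92% of all 35116 promoters. It lay in SDHD, COX6A1, ATP5F1C, ATP5MC2, ATP5ME and ATP5PF. CCGGAAGT, bound by ETS factors such as GABPA, was in 9 of 38 (23.7%, all promoters 4.14%), and AAGATGGCG, the core of the YY1 motif, in 4 of 38 (10.5%, all promoters 1.75%). GGGCGGGG, bound by SP1, was in 7 of 38 (18.4%, all promoters 22.8%). The 35116 promoters were not limited to genes with counts in these cells, so the shares are not set against expressed genes alone. A part of these motifs in the differences between libraries was not tested. Since GCGCATGCG is nearly its own reverse complement, sites on both strands overlap in ATP5F1C and SDHD.

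A pair of sites is shown, those where no annotated exon covers the window, and the capitals are the reverse complement of GCGCATGCG. They lie before the start site on chromosome 12, the first on the minus strand and the second on the plus strand.
ATP5MC2, chr12:53676105-53676134: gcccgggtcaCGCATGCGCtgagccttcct
COX6A1, chr12:120437884-120437913: ggagggcacaCGCATGCGCacgaaggaaac
ATP5MC2 had the narrowest range of the 40 over the libraries (SD 0.104 on the log2 CPM scale), and COX6A1 (0.192) was near their median. A match is a description of letters and not of a bound site.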

How the data were processed

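RNA-seq of polyA RNA from 12 iMGL libraries was analysed. The authors prepared unstranded TruSeq libraries, sequenced them from both ends, trimmed adapters with Cutadapt, aligned them (STAR, hg38) and deposited an unscaled estimated count for each gene. The counting tool is not given in the sources used here. Estimated counts were rounded (10.8% to 11.5% of values per library were fractions, where whole counts had been planned for) and summed per clone. Genotypes were compared with edgeR 4.0.16 in R 4.3.3 (TMM, filterByExpr, quasi-likelihood test, Benjamini-Hochberg adjustment over all genes, threshold 0.05). For the differentiations and the interaction, the fit took the 12 libraries and a fixed effect of clone. The paper's mixed model (DREAM) was not run. Log2 CPM used a prior count of 2. Annotation was GENCODE version 44, with 62639 of 62703 identifiers matched. The fits were also run on simulated counts, in which genes varied independently of each other. The members varied together, so that run does not measure how the fits perform for them. The clones come from a single parent line, so p-values measure the spread between these clones only.

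The members and lists were chosen with earlier results of these data known. All 40 members are named. The value of 1 marker gene is not reported here. Full statistics were given for the 2 members of each complex with the smallest p in each main comparison and for the ring genes, and other genes named are LACTB and the first 2 of each pathway list; COX4I1, ATP5IF1, ATP5ME and other members described by their levels, and the genes named as overlapping, were chosen after their values were seen. The label's batch tag marks the differentiation. After removal of genotype means, libraries of the same differentiation correlated at 0.0322 on average across genotypes (18 pairs), against -0.0313 for the other differentiation (18 pairs). Alternatives were RLE and total-count scaling, no filter, DESeq2 1.42.0, limma voom 3.58.1 with clone as a random effect, the replicate block, each clone or differentiation left out, and other gene lengths; the clone pairs, the omission of libraries J1 and K2 and the canonical length were added after the data were seen.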

Additional observations from a re-analysis of the deposited data

Results flagged for a closer look

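In 82 groups of 6 libraries (40 members and LACTB in each genotype), a library stood apart from the rest of its group in 2, and chance alone gives about 1 in 20. UQCRH was lowest in WT library L1 at 67.1 CPM, against 83.0 to 92.9 CPM in the other 5, and the gap made up 0.652 of the range of log2 CPM. COX7A2L was lowest in LACTB KO library C1 at 57.4 CPM, against 65.6 to 70.9 CPM in the other 5, a gap of 0.631 of the range.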

How the results depend on the processing

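No member had an adjusted p under 0.05 in any comparison under any alternative run, and the smallest was 0.263 (DESeq2, differentiation 2 against 1). Without an expression filter, edgeR called 2 genes between genotypes, 80 between differentiations and 364 between genotypes in differentiation 1, with no member among them. With the differentiation as a replicate block over the 12 libraries, edgeR left 0 members called and 34 above 0 (median 0.034). That fit had no term for clone, so it took the libraries of a clone as separate replicates of the genotype, which they are not. With the clone pairs as replicate block there were 0 called and 34 above 0. Neither block changed a call. RLE and total-count scaling also left 34 above 0 between genotypes, whereas total-count scaling lowered the members above 0 between differentiations from 18 to 9 (median -0.044, all genes -0.041). Leaving out a clone gave 13 to 40 members above 0 between genotypes. Differentiation 2 alone gave 3 above 0, and omission of the WT libraries J1 and K2 gave 4; the cause was not tested.

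Directions of single members turned too, none past the threshold. Without J1 and K2 the log2 fold changes were -0.087 (SDHD), -0.088 (SDHA), -0.006 (CYC1), -0.039 (UQCRC1), -0.011 (COX5A), -0.033 (COX7B), -0.029 (ATP5MC1), -0.016 (ATP5MC2) and -0.028 (ATP5MC3). In differentiation 2 alone they were -0.082 (SDHD), -0.081 (SDHA), -0.047 (CYC1), -0.040 (UQCRC1), -0.034 (COX5A), -0.077 (COX7B), -0.009 (ATP5PB), -0.075 (ATP5MC1) and -0.120 (ATP5MC3). Leaving out a clone gave -0.023 to 0.092 (SDHD), -0.013 to 0.057 (SDHA), -0.006 to 0.195 (COX7B), -0.018 to 0.223 (ATP5MC1), -0.016 to 0.090 (ATP5MC2) and -0.002 to 0.177 (ATP5MC3). LACTB ran from -3.201, without clone B (adjusted p = 0.0157), to -1.459. Between differentiations, ATP5ME was at 0.033 in WT clones alone, and SDHC at -0.020 in LACTB KO clones alone and at -0.016 to 0.082 without a clone. Differences in ring share ran from -0.186 to 0.803 (ATP5MC1), -1.53 to 0.174 (ATP5MC2) and -0.156 to 1.06 percentage points (ATP5MC3) without a clone.

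Summed levels moved with the length. The longest transcript gave 714, 1650 and 3500 TPM for complexes II, III and V, the canonical transcript 604, 3470 and 4280 TPM for complexes II, IV and V, and CPM without length 388, 932, 1010 and 2560 for complexes II to V. With 3 clones per genotype, the median 95% interval of a member reached 0.24 on the log2 scale to either side.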

Other observations

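Markers of dividing cells were also compared between the differentiations. Of 12 genes tested, 9 were higher in differentiation 2 and the median log2 fold change was 0.32, with 5 genes higher and 1 lower at an unadjusted p under 0.05, where 943 of 15530 genes were higher and 604 lower at that p. The smallest adjusted p (edgeR) was 0.0906, so none was called. Their mean log2 CPM was higher in differentiation 2 in clones J, L, A and C and lower in K (5.71 and 5.35) and B (5.72 and 5.57). Their summed level ran from 521 to 1040 CPM in WT and from 754 to 1020 CPM in LACTB KO.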
